A study of Mus musculus with 11 samples.

Results

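The nuclear genes of oxidative phosphorylation were described across mouse B cell leukemia and proB cells. Members were all rows of the deposited tables whose gene symbol begins with Nduf, Uqcr, Cox4 to Cox8 or Atp5, or is Sdha, Sdhb, Sdhc or Sdhd. The rule used names only and took 92 of 24319 gene symbols. By role, 7 encode core subunits of complex I, 29 its accessory subunits and 7 its assembly factors. Complex II had 4 members, complex III 8, complex IV 12 common subunits and 8 tissue-restricted isoforms, and complex V 15. Cyc1, a nuclear-encoded subunit of complex III, does not match the rule and is left out of the complex III values. Atp5s and Atp5sl, which carry the ATP5 name and are no ATP synthase subunits, made up the last 2.

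RNA was sequenced in 11 libraries of C57BL/6J mice. B-ALL cells were leukemic cells from the lymph nodes of Ebf1+/- Pax5+/- mice, with 2 libraries from each of 3 mice, numbered 686, 713 and 760. The dHet proB cells, with 3 libraries, were Ebf1+/- Pax5+/- Rag2-/- and were grown from c-Kit positive fetal liver cells on OP9 feeders in the presence of interleukin 7 (IL-7), stem cell factor and Flt3 ligand. The wt proB cells, with 2 libraries, were sorted as Fraction BC from bone marrow of Ebf1+/+ Pax5+/+ Rag2+/+ mice. Ebf1 and Pax5 encode transcription factors of early B cells, and both are reduced to 1 copy in B-ALL and dHet proB cells alike. Tissue, culture, Rag2 genotype and leukemia change together between the groups and cannot be told apart. The sources used here give no ages, and the labels tie neither the dHet proB nor the wt proB libraries to animals or cultures, so p-values measure the spread between samples, which may be technical.

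Oxidative phosphorylation takes place in the inner mitochondrial membrane. Complexes I and II pass electrons from NADH and succinate to ubiquinone, complex III hands them to cytochrome c, and complex IV gives them to oxygen. Complexes I, III and IV pump protons, and complex V, the ATP synthase, uses the gradient to make ATP. Some subunits are encoded by mitochondrial DNA, and the remaining subunits and all assembly factors are encoded in the nucleus. ProB cells that proliferate in response to IL-7 are known to use both glycolysis and respiration.

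Levels are given as FPKM, which divides the fragments of a gene by its length and by the size of the library. The sum of FPKM ranged from 505261 to 638953 per library and 9850 to 10595 genes had 1 FPKM or more. The absolute depth is unknown, and the spacing of the lowest values gave relative depths from 0.637 to 1 of the deepest library. The B lineage genes Ebf1 and Pax5 had at least 1 FPKM in every library. The library titled replicate 3 of the dHet proB cells carries replicate 2 in its source name and is called library 3 here.

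The summed FPKM of the 92 members was 25880 ± 856 in B-ALL (SD, n = 3 mice), 20810 ± 4475 in dHet proB cells (SD, n = 3) and 19901 ± 1407 in wt proB cells (SD, n = 2). As a share of all FPKM in a library, the members took 4.18 ± 0.17% in B-ALL, 3.78 ± 0.54% in dHet proB cells and 3.70 ± 0.10% in wt proB cells. Every B-ALL library, at 3.89 to 4.42%, lay above both wt proB libraries, at 3.63 and 3.77%. The dHet proB libraries, at 3.67, 4.37 and 3.30%, spanned almost the whole range of the series.

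By complex, the ATP synthase genes summed to 6446 ± 291 FPKM in B-ALL, 4781 ± 1173 in dHet proB cells and 4713 ± 523 in wt proB cells. Complex III summed to 3139 ± 194 FPKM in B-ALL, 2302 ± 441 in dHet proB cells and 2201 ± 107 in wt proB cells. The 36 complex I subunits summed to 9277 ± 272 FPKM in B-ALL, 7644 ± 1717 in dHet proB cells and 7275 ± 12.2 in wt proB cells. Complex II summed to 999 ± 62.8 FPKM in B-ALL, 784 ± 136 in dHet proB cells and 756 ± 32.4 in wt proB cells. In each of these complexes the 6 B-ALL libraries lay above both wt proB libraries, whereas dHet proB library 2 reached into the B-ALL range. As a share of all FPKM in a library, complexes II, III and V still separated the 6 B-ALL libraries from both wt proB libraries. For complex II the lowest B-ALL share was 0.1445% in mouse 713 library 2, against 0.1407% and 0.1408% in the wt proB libraries. Complex I did not separate these groups, with 1.34% in mouse 760 library 2 against 1.40% in wt proB library 2. Complex IV, at 5801 ± 352 FPKM in B-ALL, 5120 ± 1034 in dHet proB cells and 4750 ± 722 in wt proB cells, did not separate the groups.

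**Figure D1:**
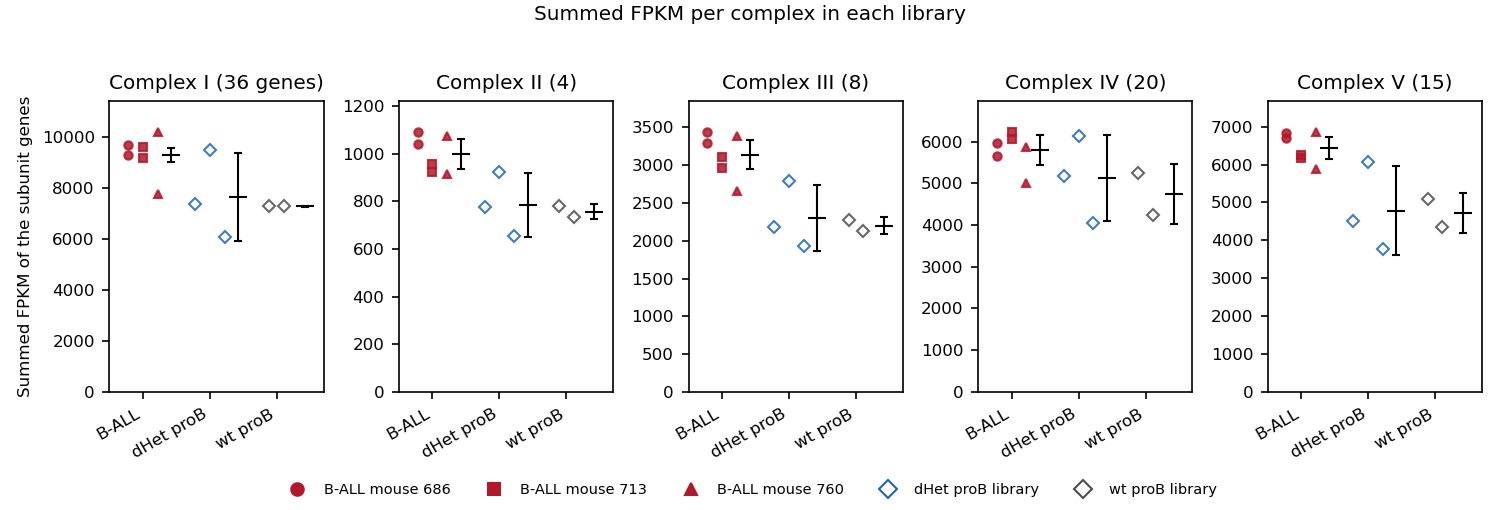
Summed FPKM (vertical axis, from 0) of the subunit genes of each complex, 1 point per library, with B-ALL points shaped by mouse. Black marks give the mean ± SD (B-ALL, n = 3 mice; dHet proB, n = 3 libraries; wt proB, n = 2 libraries). For complex V the B-ALL libraries lie between 5889 and 6846, both wt proB libraries at 4343 and 5082, and dHet proB library 2 at 6061 stands above the other dHet proB libraries.

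The first comparison set B-ALL against wt proB cells, that is, leukemia against normal proB cells. Of the 92 members, 87 had at least 1 FPKM in 2 or more of the 8 units (3 mice, 5 proB libraries) and were tested. The 5 that were not tested, Cox4i2, Cox7b2, Cox8b, Cox8c and Ndufa4l2, are all tissue-restricted isoforms of complex IV. In limma on log2(FPKM + 1), with adjusted p under 0.05 over all 11110 genes tested, 4 members rose and 3 fell. These are 4.60% and 3.45% of the tested members, against 8.15% of all genes higher and 10% lower. The median log2 fold change of the 87 members was 0.35, against -0.02 for all genes, and 72 members had a positive value. At an unadjusted p under 0.05 there were 29 members, 33.3% of those tested, and 3892 or 35.0% of all genes. Rescaling each library to a common sum moved the median of all genes by -0.20 and the members' median to 0.15, which kept the gap between them at 0.37, and 23.8% of all called genes were then higher in place of 44.9%. Quantile normalization narrowed the gap to 0.11. In 44 members every B-ALL library lay above both wt proB libraries, an order seen upward in 23.5% of all genes, and in 3 members every B-ALL library lay below, seen in 24.7%.

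**Figure D2:**
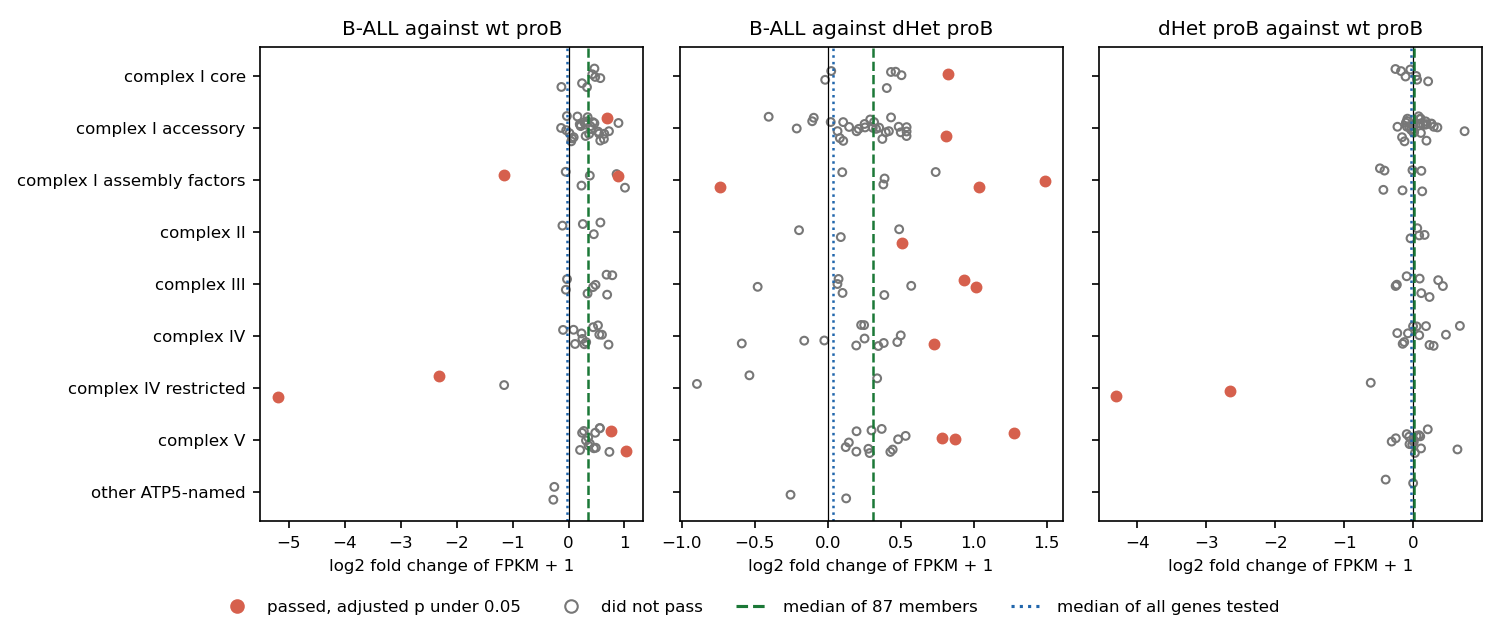
Log2 fold change of FPKM + 1 (horizontal axis, a separate range in each panel) for the 87 members tested, 1 point each, by role. Filled points passed limma's adjusted p of 0.05, the dashed line is the median of the members and the dotted line that of all 11110 genes. Against wt proB cells and against dHet proB cells most B-ALL points lie right of the dotted line, while Cox6a2 and Cox6b2 lie far left in both comparisons with wt proB cells.

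Among the complex I genes, 1 accessory subunit and 1 assembly factor rose and 1 assembly factor fell, while none of the 7 core subunits was called. Ndufaf3, which encodes a factor for assembly of the peripheral arm of complex I, had 26.9, 29.95, 41.3, 39.4, 33.3 and 26.1 FPKM in the B-ALL libraries, against 69.7 and 76.6 FPKM in wt proB cells. Every B-ALL library was lower than both wt proB libraries. Ndufaf3 fell by 1.15 on the log2 scale (SE 0.19, limma adjusted p = 0.00628). Ndufaf6, a factor needed early in complex I assembly in human cells, had 36.6, 37.2, 26.0, 27.6, 39.0 and 30.6 FPKM in the B-ALL libraries, against 17.2 and 17.0 FPKM in wt proB cells. All 6 B-ALL libraries were higher, with a log2 fold change of 0.89 (SE 0.22, limma adjusted p = 0.0308). Ndufb4, an accessory subunit of the membrane arm, had 97.5 to 117 FPKM in B-ALL and 78.1 and 55.4 FPKM in wt proB cells. Its log2 fold change was 0.68 (SE 0.20, limma adjusted p = 0.0482), which passed in 8 of 25 alternative settings. Of the 50-base words in Ndufb4 transcripts, 37.0% also occur in transcripts of other genes, so its level is uncertain.

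Ndufs1, the largest core subunit with its iron-sulfur clusters, had 42.5 to 56.5 FPKM in B-ALL, against 39.4 and 37.0 FPKM in wt proB cells. Its log2 fold change was 0.33 (SE 0.19) and did not pass (limma adjusted p = 0.262). Ndufv1, the core subunit that binds NADH and FMN, had 131 to 161 FPKM in B-ALL and 98.4 and 99.01 FPKM in wt proB cells, a log2 fold change of 0.57 (SE 0.21, limma adjusted p = 0.1002). All 6 B-ALL libraries exceeded both wt proB libraries for both genes, without reaching the threshold.

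No member of complex II or III was called against wt proB cells. Their median log2 fold changes were 0.35 over 4 members and 0.46 over 8 members. Sdha, the catalytic subunit of succinate dehydrogenase, had 142 to 196 FPKM in B-ALL and 140 and 150 FPKM in wt proB cells, and the groups overlapped. Uqcrc1, a core subunit of complex III, had 504 to 710 FPKM in B-ALL and 378 and 479 FPKM in wt proB cells, which did not overlap but did not pass (log2 fold change 0.48, SE 0.20, limma adjusted p = 0.132).

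In complex IV the common subunits were not called, and the members that fell were isoforms known from other tissues. Cox6a2, the heart and skeletal muscle form of subunit VIa, had 2.32, 3.12, 5.13, 4.48, 1.76 and 1.22 FPKM in the B-ALL libraries, against 169 and 111 FPKM in wt proB cells. It fell by 5.20 on the log2 scale (SE 0.73, limma adjusted p = 0.00336). Cox6a2 made up 0.25 to 0.95% of the summed FPKM of Cox6a1 and Cox6a2 in B-ALL, against 23.9% and 24.6% in wt proB cells. Cox6a1, the form found in most tissues, had 459 to 538 FPKM in B-ALL and 538 and 342 FPKM in wt proB cells, and the groups overlapped. Cox6b2, known as the testis form of subunit VIb, had 0.12, 0, 1.48, 1.63, 0 and 0 FPKM in the B-ALL libraries, against 5.35 and 6.57 FPKM in wt proB cells. The zeros lay in mouse 686 library 2 and in both libraries of mouse 760. Cox6b2 fell by 2.31 on the log2 scale (SE 0.40, limma adjusted p = 0.00775).

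The wt proB libraries also held markers of other blood cells. The 10 plasmacytoid dendritic cell markers summed to 61.0 to 103 FPKM in B-ALL, with 1 to 4 of them at 1 FPKM or more, against 349 to 537 FPKM in wt proB cells with all 10 at that level. Siglech, their defining marker, had 0.015 to 1.65 FPKM in B-ALL, was listed at 0 in all 3 dHet proB libraries, and had 132 and 77.3 FPKM in wt proB cells. Bst2 made up most of the summed FPKM of these 10 markers, with 55.8 to 101 FPKM in B-ALL and 282 and 197 FPKM in wt proB cells. The 8 neutrophil markers summed to 0.37 to 47.3 FPKM in B-ALL, with 0 to 5 at 1 FPKM or more, against 399 to 423 FPKM in wt proB cells with all 8 at that level. Their part in the results for Cox6a2 and Cox6b2 was not tested, and in bulk samples fewer cells of a type and less RNA per cell cannot be told apart.

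Complex V was the only complex in which all members had a positive log2 fold change against wt proB cells, 15 of 15, from 0.21 to 1.03 with a median of 0.45. Atp5g1, 1 of the genes for subunit c of the membrane rotor, had 362, 387, 322, 311, 381 and 327 FPKM in the B-ALL libraries, against 189 and 153 FPKM in wt proB cells. All B-ALL libraries were higher, with a log2 fold change of 1.03 (SE 0.25, limma adjusted p = 0.0282). Atp5l, subunit g of the membrane part, had 141 to 166 FPKM in B-ALL and 104 and 76.2 FPKM in wt proB cells. Its log2 fold change was 0.77 (SE 0.19, limma adjusted p = 0.0308), yet 68.5% of its 50-base words are shared with other genes, the largest share of any member, so its level is uncertain. Atp5b, the catalytic beta subunit, had 576 to 748 FPKM in B-ALL and 530 and 388 FPKM in wt proB cells. It did not pass (log2 fold change 0.56, SE 0.25, limma adjusted p = 0.156).

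With mouse 686, mouse 760 or either wt proB library left out, none of the 4 higher calls against wt proB cells remained, while the share of all genes called higher was 3.39%, 5.79%, 1.13% (without wt proB library 1) and 0.562% (without library 2) in place of 8.15%. With wt proB library 1 left out no member was called in either direction, and with library 2 left out Cox6a2 was the 1 call, where 1.40% and 1.23% of all genes were called lower in place of 10%. Over all 25 alternative settings the log2 fold changes were 0.80 to 1.18 for Atp5g1, -1.36 to -1.06 for Ndufaf3 and -5.63 to -4.90 for Cox6a2. They were 0.70 to 1.02 for Ndufaf6, 0.54 to 0.99 for Atp5l and 0.44 to 0.93 for Ndufb4. For Cox6b2 they ran from -4.37 to -2.08 over 24 settings.

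The second comparison set B-ALL against dHet proB cells, which carry the same Ebf1 and Pax5 genotype and also lack Rag2. Here 11 members rose and 1 fell, 12.6% and 1.15% of the 87 tested, against 14.5% of all genes higher and 11% lower. The members' median log2 fold change was 0.31, against 0.04 for all genes, and 73 members had a positive value. In 14 members every B-ALL library lay above every dHet proB library, seen in 19.5% of all genes, and in 3 every library lay below, seen in 15.5%. With each library rescaled to a common sum the median of all genes moved by -0.15 and the gap was 0.25 in place of 0.27, with 38.8% of all called genes higher in place of 57.0%. With quantile normalization the gap was 0.14, and 46.3% of called genes were higher. These medians are descriptions and not tests of the members as a group.

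Assembly factors of complex I moved in both directions. Ndufaf4 had 20.6, 20.8, 15.1, 16.3, 14.9 and 16.6 FPKM in the B-ALL libraries, against 2.62, 5.66 and 10.4 FPKM in dHet proB cells. The groups did not overlap, and the log2 fold change was 1.49 (SE 0.38, limma adjusted p = 0.0256). Ndufaf3, whose product binds that of Ndufaf4 in human cells, had 26.1 to 41.3 FPKM in B-ALL and 47.8, 58.7 and 57.8 FPKM in dHet proB cells. Every B-ALL library was lower, and Ndufaf3 fell by 0.74 on the log2 scale (SE 0.17, limma adjusted p = 0.0185). Ndufaf6 had 26.0 to 39.0 FPKM in B-ALL, against 12.4, 19.6 and 14.7 FPKM in dHet proB cells, and rose by a log2 fold change of 1.04 (SE 0.20, limma adjusted p = 0.00995).

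Among complex I subunits, 1 of 7 core and 1 of 29 accessory subunits rose. Ndufv1 had 131 to 161 FPKM in B-ALL and 82.4, 108 and 63.1 FPKM in dHet proB cells, with a log2 fold change of 0.82 (SE 0.19, limma adjusted p = 0.0187). Ndufa12, an accessory subunit near the NADH-binding end, had 729, 749, 733, 715, 794 and 558 FPKM in B-ALL, against 351, 571 and 327 FPKM in dHet proB cells. The lowest B-ALL value, in mouse 760 library 2, lay below dHet proB library 2, so the groups overlapped. Its log2 fold change was 0.81 (SE 0.23, limma adjusted p = 0.0357), which passed in 10 of 25 alternative settings, and 26.2% of its 50-base words are shared with another gene.

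In complexes II and III, Sdhd, a membrane anchor of succinate dehydrogenase, rose with a log2 fold change of 0.51 (SE 0.16, limma adjusted p = 0.0478). It had 224 to 279 FPKM in B-ALL and 185, 191 and 154 FPKM in dHet proB cells, and the call was kept in 7 of 25 alternative settings. Uqcr11, a small subunit of complex III, had 683, 748, 585, 564, 742 and 542 FPKM in B-ALL, against 270.2, 443 and 261 FPKM in dHet proB cells. The groups did not overlap, with a log2 fold change of 1.02 (SE 0.22, limma adjusted p = 0.0159). Uqcrq, also a small subunit, had 465 to 706 FPKM in B-ALL and 269, 474 and 248 FPKM in dHet proB cells. It rose with a log2 fold change of 0.93 (SE 0.25, limma adjusted p = 0.0310) although mouse 760 library 2 lay just below dHet proB library 2, and the call was kept in 13 of 25 alternative settings.

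In complex IV, Cox5a, a common subunit on the matrix side, rose with a log2 fold change of 0.73 (SE 0.19, limma adjusted p = 0.0287). It had 651 to 767 FPKM in B-ALL and 378, 541 and 378 FPKM in dHet proB cells. Cox7a2l, counted here with the common subunits of complex IV, had 257 to 358 FPKM in B-ALL. It had 549, 362 and 489 FPKM in dHet proB cells, and 307 and 268 FPKM in wt proB cells. All B-ALL libraries lay below all dHet proB libraries, and the difference did not pass as deposited (log2 fold change -0.59, SE 0.20, limma adjusted p = 0.0592). Cox7a2l passed as lower when each library was rescaled to a common sum or quantile normalized, as did Ndufs5 and Uqcrh, so that 4 members were called lower in place of 1.

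In complex V, 3 of 15 subunits rose. Atp5g1 had 311 to 387 FPKM in B-ALL and 116, 202 and 124 FPKM in dHet proB cells, a log2 fold change of 1.28 (SE 0.22, limma adjusted p = 0.00760). Atp5b had 748, 733, 576, 616, 670.3 and 678 FPKM in B-ALL, against 323, 487 and 309 FPKM in dHet proB cells, a log2 fold change of 0.87 (SE 0.23, limma adjusted p = 0.0273). Atp5e, the epsilon subunit of the central stalk, had 466 to 582 FPKM in B-ALL and 293, 403 and 248 FPKM in dHet proB cells, a log2 fold change of 0.78 (SE 0.22, limma adjusted p = 0.0337). None of these 3 genes had overlapping groups.

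**Figure D3:**
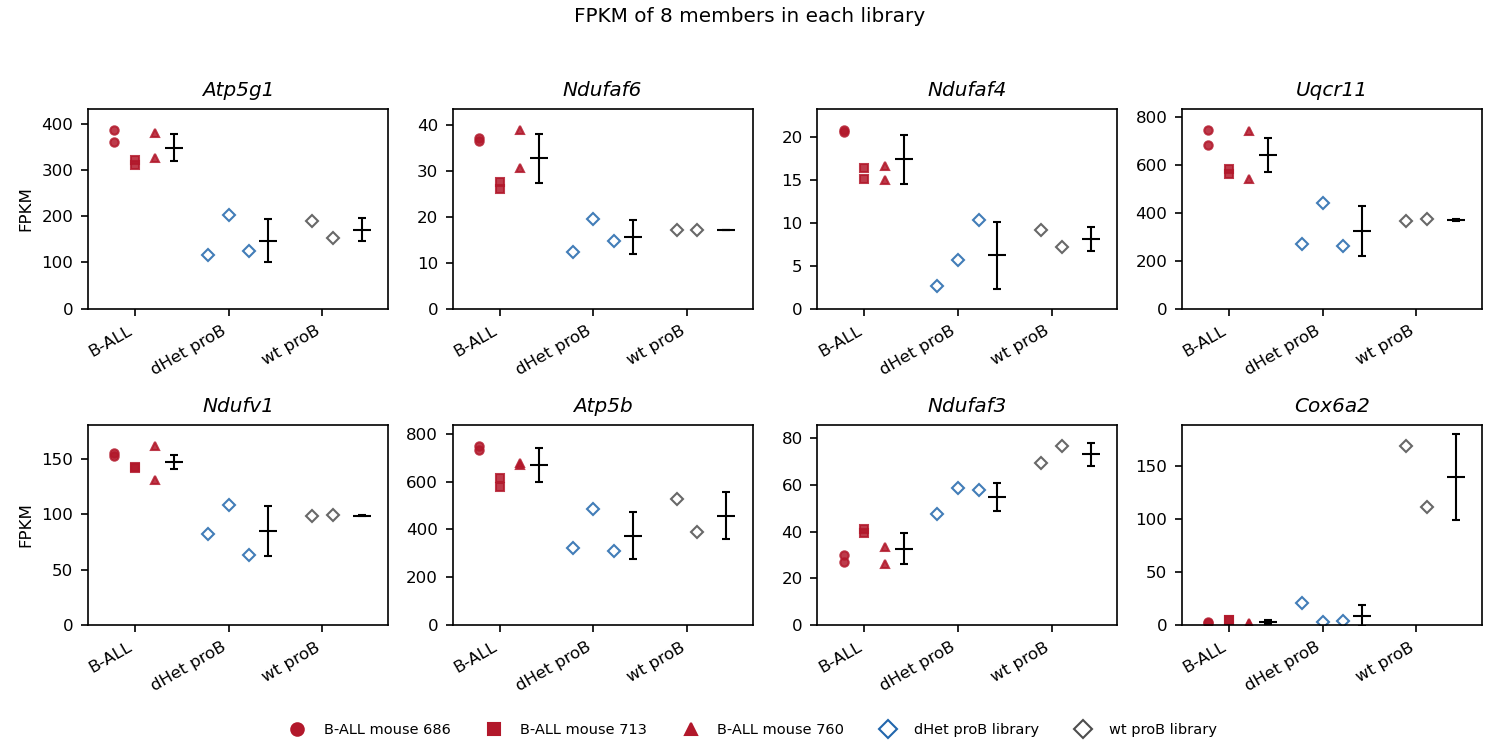
FPKM (vertical axes, from 0) of 8 members in each library, with B-ALL points shaped by mouse and black marks for the mean ± SD (B-ALL, n = 3 mice; dHet proB, n = 3 libraries; wt proB, n = 2 libraries). Atp5g1 lies between 311 and 387 in B-ALL and at or below 202 in the proB libraries, Ndufaf3 lies lower in B-ALL, and Cox6a2 stands out in wt proB cells alone.

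Atp5g1, Atp5g2 and Atp5g3 encode the same mature subunit c behind different targeting peptides. Atp5g1 made up 35.0 to 42.1% of their summed FPKM in B-ALL, 23.4 to 28.2% in dHet proB cells and 29.6 to 29.8% in wt proB cells. Atp5g3 made up 49.2 to 52.9% in B-ALL, 60.3 to 60.5% in dHet proB cells and 57.0 to 58.9% in wt proB cells. The ranges of B-ALL and proB libraries did not overlap for either share. Atp5g3 itself had 413 to 506 FPKM in B-ALL and 300.1, 464 and 264 FPKM in dHet proB cells, with a log2 fold change of 0.48 (SE 0.23, limma adjusted p = 0.149). Of the 50-base words in transcripts of Atp5g1 and Atp5g2, 10.2% and 38.4% occur in other genes.

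Called the same way in both comparisons of B-ALL, which share the B-ALL samples, were Atp5g1 and Ndufaf6 as higher and Ndufaf3 as lower. Against dHet proB cells, Atp5g1 and Ndufaf6 passed in all 25 alternative settings, with log2 fold changes of 1.09 to 1.52 and 0.88 to 1.21. Against wt proB cells Atp5g1 passed in 21 of 25 and Ndufaf6 in 19 of 25. Ndufaf3 passed in 22 of 25 against dHet proB cells and in 23 of 25 against wt proB cells. Counting libraries without a model, 14 members were higher in all 6 B-ALL libraries than in all 5 proB libraries, where 13% of all genes were. Ndufaf3 was the 1 member lower in all 6, where 9.85% of all genes were.

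The count of higher calls against dHet proB cells moved with single samples. It was 23 without dHet proB library 2 and 5 without library 3, where 13.4% of all genes were called higher in each of these fits in place of 14.5%. It was 2 without dHet proB library 1, 2 without mouse 686 and 4 without mouse 760, where 7.35%, 7.37% and 11.4% of all genes were called higher. The lymph node libraries held more T cell and red cell RNA, and neither part in these results was tested. The 6 T cell markers summed to 5.79 to 19.0 FPKM in B-ALL and 0 to 0.24 FPKM in dHet proB cells. The 6 red cell markers summed to 7.57 to 514 FPKM in B-ALL and 0.55 to 1.02 FPKM in dHet proB cells. Sums of the 5 monocyte and macrophage markers overlapped, at 34.2 to 286 FPKM in B-ALL and 13.9 to 68.1 FPKM in dHet proB cells. Of these 5 markers, 3 were called higher in B-ALL and none lower, where 14.5% of all genes were called higher. Their median log2 fold change was 1.88. Sums of the 12 B lineage markers also overlapped, at 6733 to 9929 FPKM in B-ALL and 9493 to 12005 FPKM in dHet proB cells. Of these 12 markers, 5 were called lower in B-ALL and none higher, where 11% of all genes were called lower. Their median log2 fold change was -0.71. The part of these 2 marker lists was not tested either.

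Promoters of 6 members are shown, namely those called in both comparisons of B-ALL or with the largest change among the members of their complex called against dHet proB cells, where the RefSeq table of build GRCm38.p6 has an entry. Each runs from 250 bases before to 50 after the annotated start, 5′ to 3′ on the gene's strand. Capitals mark exact matches, on either strand, to letters bound by known regulators of respiratory genes: NRF1 (GCGC and TGCGC with any base between them, or the core GCGCATGC, which can overlap the full letters), ETS factors such as GABP (CCGGAAG), YY1 (AAGATGGC) and the E-box of MYC and USF (CACGTG).
Atp5g1, chr11:96075582-96075881, GRCm38.p6, minus strand: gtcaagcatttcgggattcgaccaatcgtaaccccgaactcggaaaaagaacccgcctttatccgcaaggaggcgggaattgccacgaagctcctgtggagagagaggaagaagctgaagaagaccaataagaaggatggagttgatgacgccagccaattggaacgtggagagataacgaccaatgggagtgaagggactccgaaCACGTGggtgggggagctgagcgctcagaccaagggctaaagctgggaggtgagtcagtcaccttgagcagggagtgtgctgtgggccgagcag
Ndufaf4, chr4:24897833-24898132, GRCm38.p6, plus strand: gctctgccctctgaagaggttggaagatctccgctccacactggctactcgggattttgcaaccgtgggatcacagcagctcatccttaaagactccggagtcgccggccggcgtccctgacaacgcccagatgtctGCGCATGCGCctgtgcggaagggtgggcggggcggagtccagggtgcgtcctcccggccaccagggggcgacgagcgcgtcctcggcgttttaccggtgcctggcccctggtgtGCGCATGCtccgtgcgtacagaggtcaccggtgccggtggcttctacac
Sdhd, chr9:50603800-50604099, GRCm38.p6, minus strand: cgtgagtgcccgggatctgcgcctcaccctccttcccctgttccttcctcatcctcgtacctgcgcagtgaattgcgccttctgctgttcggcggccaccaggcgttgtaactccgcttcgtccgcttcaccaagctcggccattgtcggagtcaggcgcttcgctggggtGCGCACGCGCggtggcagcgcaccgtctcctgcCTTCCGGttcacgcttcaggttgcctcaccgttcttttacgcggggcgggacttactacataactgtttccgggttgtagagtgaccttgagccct
Uqcr11, chr10:80406772-80407071, GRCm38.p6, minus strand: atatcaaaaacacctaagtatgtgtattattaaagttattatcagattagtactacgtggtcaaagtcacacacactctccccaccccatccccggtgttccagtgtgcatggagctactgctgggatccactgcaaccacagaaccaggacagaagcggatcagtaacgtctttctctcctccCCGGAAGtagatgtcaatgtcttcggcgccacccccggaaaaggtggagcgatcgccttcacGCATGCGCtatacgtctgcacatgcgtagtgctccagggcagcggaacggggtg
Cox5a, chr9:57520982-57521281, GRCm38.p6, plus strand: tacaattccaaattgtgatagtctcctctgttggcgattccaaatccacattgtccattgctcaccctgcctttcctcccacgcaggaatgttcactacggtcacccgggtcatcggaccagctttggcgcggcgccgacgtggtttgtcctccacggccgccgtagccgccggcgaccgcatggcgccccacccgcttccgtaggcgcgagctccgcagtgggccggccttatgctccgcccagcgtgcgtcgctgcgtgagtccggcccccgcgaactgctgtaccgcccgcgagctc
Ndufaf3, chr9:108567387-108567686, GRCm38.p6, minus strand: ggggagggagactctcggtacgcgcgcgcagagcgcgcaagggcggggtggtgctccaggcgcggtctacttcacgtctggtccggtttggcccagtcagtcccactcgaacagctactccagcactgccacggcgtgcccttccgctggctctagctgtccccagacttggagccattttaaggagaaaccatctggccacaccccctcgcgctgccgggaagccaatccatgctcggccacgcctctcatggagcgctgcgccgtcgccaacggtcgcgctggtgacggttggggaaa

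Atp5g1, on the minus strand, held 1 E-box. Ndufaf4, on the plus strand, held the full NRF1 letters once and a further core match. Sdhd, on the minus strand, held the full NRF1 letters once and 1 ETS match. Uqcr11, on the minus strand, held 1 ETS match and 1 NRF1 core match. Cox5a, on the plus strand, and Ndufaf3, on the minus strand, held none of these letters in this window. Of the members, 73 had promoters in the table, 78 in all. The full NRF1 letters occurred in 25.6% of the 78 member promoters, against 4.60% of all 32851 promoters. The ETS letters occurred in 21.8% of member promoters and 8.86% of all, and the YY1 letters in 11.5% of member promoters and 2.75% of all. The E-box was found in 7.69% of member promoters and 7.15% of all, and the SP1 letters GGGCGG, not capitalised above, in 42.3% of member promoters and 35.7% of all. A match describes the letters and is neither a binding site nor a cause.

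The third comparison set dHet proB against wt proB cells, both without leukemia. No member rose and 2 fell, against 2.18% of all genes higher and 6.5% lower. In limma 6 of 87 members, or 6.90%, had an unadjusted p under 0.05, against 22.5% of all genes. The median log2 fold change was 0.01, against -0.04 for all genes, with 49 positive values. Quantile normalization moved the median of all genes by 0.10, with the members' median 0.09 below it in place of 0.05 above, and 45.4% of all called genes were then higher in place of 25.1%. In 6 members every dHet proB library lay above both wt proB libraries, as in 18.9% of all genes, and in 4 every library lay below, as in 24.1%. Cox6a2 had 20.7, 2.60 and 3.39 FPKM in dHet proB cells, against 169 and 111 FPKM in wt proB cells. It fell by 4.30 on the log2 scale (SE 0.73, limma adjusted p = 0.00923). The value in dHet proB library 1 stood above the other dHet proB libraries and all B-ALL libraries. Cox6b2 had 0, 0.34 and 0 FPKM in dHet proB cells and 5.35 and 6.57 FPKM in wt proB cells, and fell by 2.65 on the log2 scale (SE 0.40, limma adjusted p = 0.00537). The markers of plasmacytoid dendritic cells summed to 34.1 to 43.2 FPKM in dHet proB cells, with the highest sum in library 1. Of these markers 1 or 2 of 10 had 1 FPKM or more. Bst2 made up most of each sum, at 38.1, 35.0 and 31.5 FPKM, and Ccr9 had 4.08, 0.26 and 1.51 FPKM. Siglech was at 0 in all 3 libraries, and in library 1 Klk1, Klk1b27, Cd209d, Lair1 and Upb1 were also listed at 0. The neutrophil markers summed to 0 to 3.15 FPKM, with 0 or 1 of 8 at that level. The wt proB sums of both lists are given above. The part of these markers in the values of Cox6a2 and Cox6b2 was not tested. With either wt proB library left out neither gene passed, and 0.581% (without library 1) and 0.875% (without library 2) of all genes were then called lower in place of 6.5%. The log2 fold changes ranged from -5.12 to -3.82 for Cox6a2 over 25 alternative settings and from -5.20 to -2.40 for Cox6b2 over 24.

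Cox4i1, the common form of subunit IV, had the highest mean FPKM of complex IV over the 11 libraries, with 987, 918 and 804 FPKM in dHet proB cells and 693 and 603 FPKM in wt proB cells. It did not pass (log2 fold change 0.48, SE 0.19, limma adjusted p = 0.187). Ndufs5, an accessory subunit of complex I, had 168, 174 and 127 FPKM in dHet proB cells and 105 and 80.5 FPKM in wt proB cells, just outside the threshold (log2 fold change 0.75, SE 0.19, limma adjusted p = 0.0518). With each library rescaled to a common sum, or quantile normalized, Ndufs5 and Atp5l passed as higher. The hypoxia-linked forms Cox4i2 and Ndufa4l2 were at most 1.13 and 0.14 FPKM in any library, and Cox7b2 and Cox8c were listed at 0 in all 11.

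Within groups the members moved together between libraries. Among dHet proB libraries, 74 of 87 members were highest in library 2 and 72 were lowest in library 3. The median log2 difference of library 3 minus library 2 was -0.57 over the members and 0.04 over all genes. Among B-ALL libraries, 74 of 87 members were lower in library 2 than in library 1 of mouse 760, with a median difference of -0.24 over the members and -0.01 over all genes. The paired libraries of the other mice differed by medians of 0.04 in mouse 686 and -0.04 in mouse 713. Between the wt proB libraries, 60 members were higher in library 1.

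**Figure D4:**
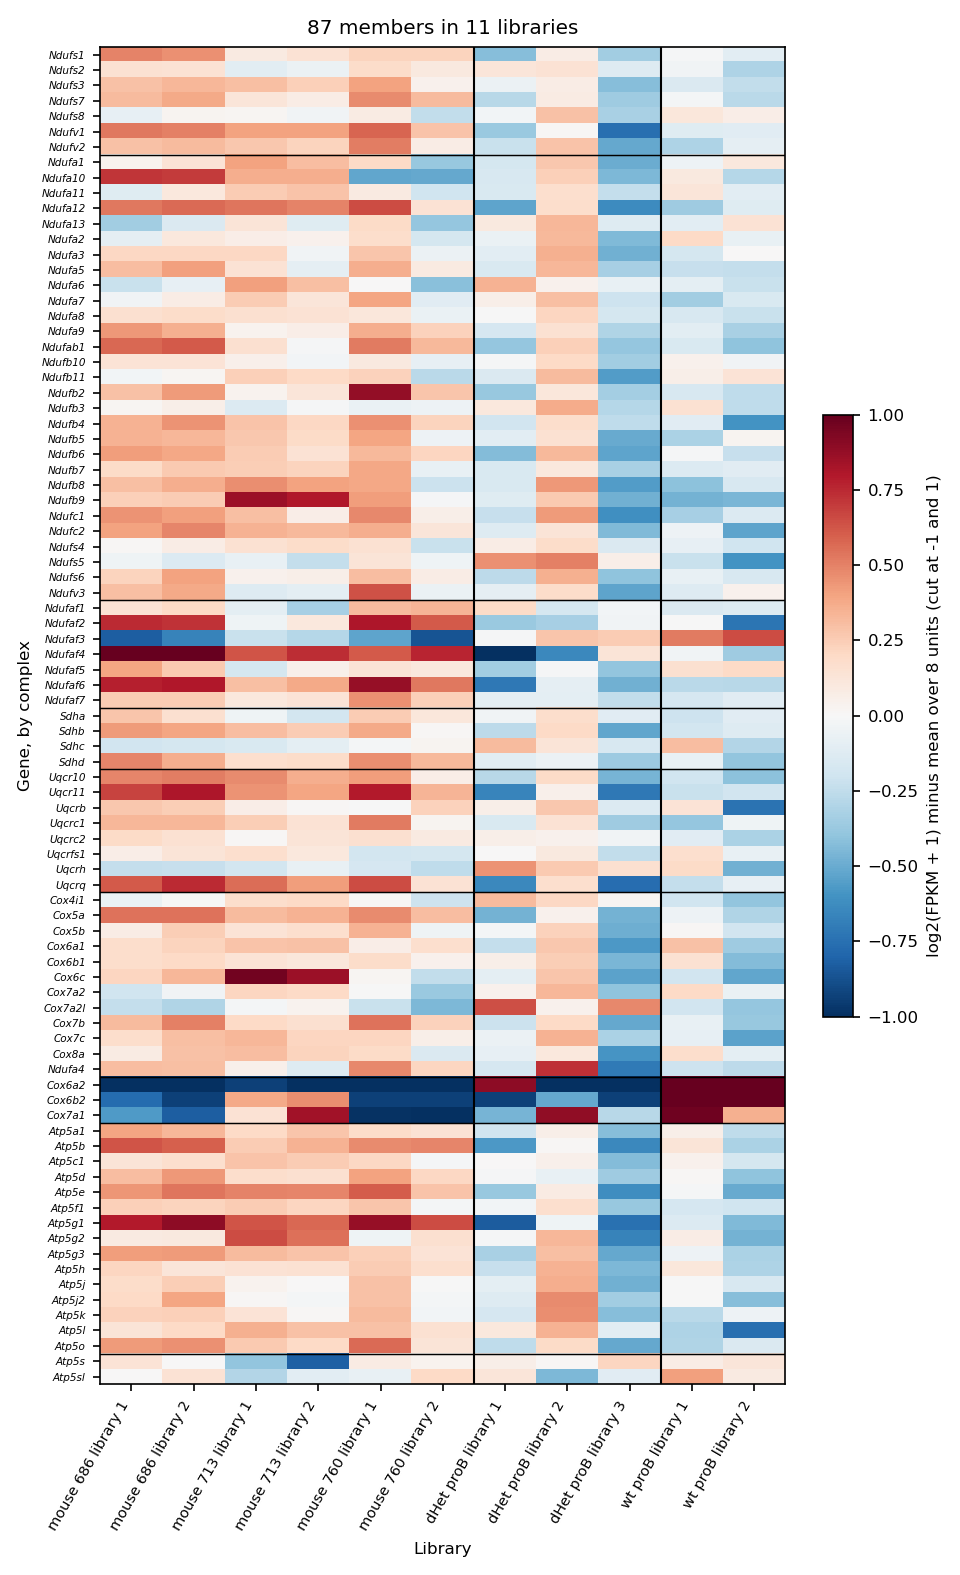
Log2(FPKM + 1) of the 87 members (rows, by complex) in 11 libraries (columns) minus the mean over the 8 units, with colours cut at -1 and 1. Red is above and blue below the mean. The dHet proB library 3 column is blue for most rows and the library 2 column pale red, Ndufaf3 runs against its neighbours, and Cox6c and Ndufb9 are darkest in mouse 713.

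Between the 3 leukemias, the limma F test on the libraries called 5 of 87 members, against 22.3% of all 11293 genes tested, and 10 members (11.5%) had an unadjusted p under 0.05, against 33.9% of all genes. This test measures mice against the spread between libraries and not between animals. Across the 3 mice, deviations of libraries with the same number had correlations of 0.13 to 0.64 over all genes tested. The library number as a block for the B-ALL libraries was an alternative chosen after seeing the data. With it 3 of 87 members remained called, against 19.7% of all genes, namely Ndufa10, Cox6b2 and Atp5s. Ndufa10, an accessory subunit of the membrane arm, had 177 and 176 FPKM in the libraries of mouse 686, against 139.5 and 139 FPKM for mouse 713 and 75.1 and 75.5 FPKM for mouse 760 (limma F test, adjusted p = 0.00638). Both libraries of mouse 760 lay below every proB library. Cox6b2 and Cox7a1, the muscle form of subunit VIIa, were higher in mouse 713, by 1.31 and 1.47 on the log2 scale over the mean of the other mice (limma F test, adjusted p = 0.000525 and 0.0464). Atp5s, which carries an ATP synthase name and no known place in the enzyme's core, was lower in mouse 713, with a log2 difference of -0.67 (limma F test, adjusted p = 0.0255).

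Cox6c, a common subunit of complex IV, had 788 and 732 FPKM in mouse 713, against 468 and 508 in mouse 686 and 409 and 340.2 in mouse 760 (limma F test, adjusted p = 0.0386, and 0.0617 with the block). The gene lies on mouse chromosome 15, a position looked up after its values were seen. The other members there are Ndufb9 and Ndufa6, accessory subunits of complex I, and Atp5g2, and none of these passed. Ndufb9 had 496 and 476 FPKM in mouse 713, against 324 and 327 in mouse 686 and 365 and 271 in mouse 760. Ndufa6 had 505 and 468 FPKM in mouse 713, against 326 and 358 in mouse 686 and 380 and 285 in mouse 760. All 4 were higher in both libraries of mouse 713 than in the 4 libraries of the other mice, with a median log2 difference of 0.57.

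The same held for the chromosome as a whole. The 446 tested genes on chromosome 15 had a median log2 difference of 0.41 between mouse 713 and the mean of the other mice, and 81.4% of them were higher. Medians for the other 19 chromosomes lay between -0.08 and 0.04. Against dHet proB cells the chromosome 15 genes had medians of 0.46 in mouse 713, 0.04 in mouse 686 and 0.05 in mouse 760. Against wt proB cells these medians were 0.44 in mouse 713, -0.03 in mouse 686 and -0.03 in mouse 760.

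**Figure D5:**
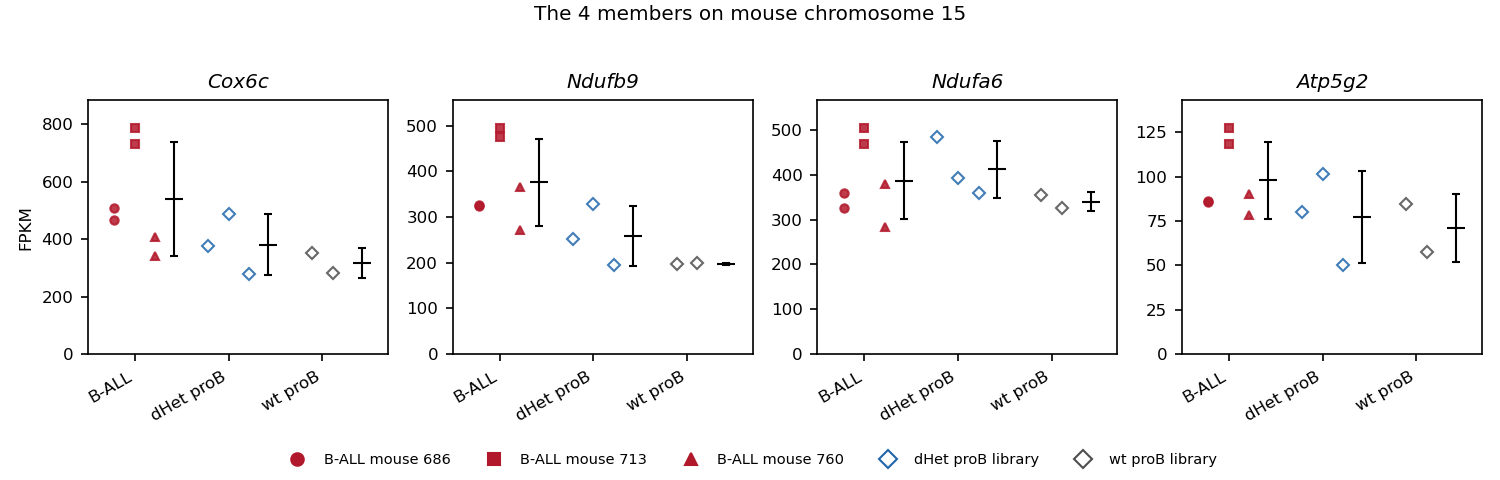
FPKM (vertical axes, from 0) of the 4 members on mouse chromosome 15 in each library, with B-ALL points shaped by mouse and black marks for the mean ± SD (B-ALL, n = 3 mice; dHet proB, n = 3 libraries; wt proB, n = 2 libraries). The square points of mouse 713 lie above those of mice 686 and 760 in every panel, at 788 and 732 for Cox6c.

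Other genes of mitochondrial respiration were counted from lists chosen with earlier results of these data known. A list of 42 genes held cytochrome c, assembly factors of complexes I to V and Cyc1, a complex III subunit outside the name rule. Of these genes, 3 rose and none fell against wt proB cells, and 10 rose and none fell against dHet proB cells. Here and for the lists that follow, 8.15% of all genes were called higher and 10% lower against wt proB cells, and 14.5% higher and 11% lower against dHet proB cells. Uqcc2, an assembly factor of complex III, had 243 to 449 FPKM in B-ALL, 83.9, 158 and 95.2 FPKM in dHet proB cells and 121 and 155 FPKM in wt proB cells. Its log2 fold change was 1.32 against wt proB cells and 1.66 against dHet proB cells (limma adjusted p = 0.0269 and 0.00693). Sco2, a copper chaperone of complex IV, had a log2 fold change of 1.84 against dHet proB cells (limma adjusted p = 0.00989), at 4.79 to 9.13 FPKM in B-ALL and 0.45 to 2.69 FPKM in dHet proB cells.

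Of 26 genes for the citric acid cycle and pyruvate entry, 5 rose and 1 fell against wt proB cells, and 8 rose and 1 fell against dHet proB cells. The list held enzymes of the cycle and also kinases that inhibit pyruvate dehydrogenase. Pdk1, such a kinase, had 56.3 to 75.4 FPKM in B-ALL, 24.4 to 36.9 FPKM in dHet proB cells and 15.8 and 18.9 FPKM in wt proB cells, with a log2 fold change of 1.78 against wt proB cells (limma adjusted p = 0.00144). Pdk2, a further one, had 0.11 to 4.25 FPKM in B-ALL and 19.2 and 21.4 FPKM in wt proB cells, and fell by 3.43 on the log2 scale (limma adjusted p = 0.0143). Idh3a, a subunit of the NAD-dependent isocitrate dehydrogenase, had 112 to 160.5 FPKM in B-ALL and 32.0, 68.3 and 46.6 FPKM in dHet proB cells, with a log2 fold change of 1.54 (limma adjusted p = 0.00634).

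Of 8 carriers tested, 3 rose and none fell against wt proB cells, and 4 rose and none fell against dHet proB cells. Slc25a4, an exchanger of ADP for ATP, had 490.3 to 780.1 FPKM in B-ALL, 246 to 349 FPKM in dHet proB cells and 241 and 247 FPKM in wt proB cells. Its log2 fold changes were 1.35 against wt proB cells and 1.07 against dHet proB cells (limma adjusted p = 0.00599 and 0.00872). Of 19 tested genes that keep and express mitochondrial DNA, 3 rose against wt proB cells and 5 against dHet proB cells, none fell, and Lrpprc, which stabilises mitochondrial mRNA, rose in both (log2 fold changes 0.94 and 0.94, limma adjusted p = 0.00903 and 0.00575).

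Of 13 tested nuclear regulators of mitochondrial genes, none rose and 1 fell against wt proB cells, and 2 rose and 2 fell against dHet proB cells. Their median log2 fold changes were -0.20 and -0.14. Pprc1 had 28.0 to 49.1 FPKM in B-ALL, 3.17, 8.69 and 21.9 FPKM in dHet proB cells and 7.74 and 8.69 FPKM in wt proB cells. Myc had 203 to 445 FPKM in B-ALL, 9.39, 42.3 and 290 FPKM in dHet proB cells and 82.5 and 68.4 FPKM in wt proB cells. Nrf1, nuclear respiratory factor 1, which binds the NRF1 letters above, had 40.1 to 53.1 FPKM in B-ALL, 48.8 to 57.5 FPKM in dHet proB cells and 51.7 and 56.6 FPKM in wt proB cells. Yy1 had 6.00, 6.78 and 9.41 FPKM in library 1 of the B-ALL mice and 16.4, 21.1 and 15.5 FPKM in library 2, against 15.5, 23.0 and 19.8 FPKM in dHet proB cells. It fell by 0.70 on the log2 scale (limma adjusted p = 0.0297), and only library 1 of each mouse lay below the dHet proB range. Between dHet proB and wt proB cells, these lists gave 1 higher call, Nfe2l2 (log2 fold change 0.74, limma adjusted p = 0.0200), and 2 lower calls, Top1mt and Ogdh (-1.94 and -0.60, limma adjusted p = 0.0428 and 0.0390).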

How the data were processed

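Per the submitters' processing notes, reads were processed with STAR 2.5.3a, bcl2fastq (0.3.1 and 2.20.0.422), Cuffdiff, and Cufflinks and Cuffnorm 2.2.1 on build mm9. The authors deposited FPKM per gene symbol for each library; the sources used here do not state annotation, strand setting or Cuffnorm scaling. The tables hold no read counts, so depth is unknown and no counting error is given.

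FPKM was transformed to log2(FPKM + 1), which shrinks changes of low genes. The 2 libraries of a B-ALL mouse were averaged, leaving 8 units. The 11110 genes at 1 FPKM or above in 2 or more units entered limma 3.58.1 (R 4.3.3) with a trend, all 3 groups in 1 fit, two-sided, Benjamini-Hochberg adjusted at 0.05. Mice were compared by an F test on 11 libraries. The fit was tested on simulated data.

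The members and lists were chosen with earlier results of these data known. Named members were the 2 called genes per role and direction with the largest change, paired isoforms, and the main and most abundant subunits of each complex; others were named after their values were seen. Positions and overlaps came from RefSeq genes of GRCm38.p6, where 30 of 92 members overlap another gene, and shared words of 50 bases from GENCODE M21 transcripts. Alternatives were another pseudocount, filter, scaling, model or left-out library.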

Additional observations from a re-analysis of the deposited data

Results flagged for a closer look

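In 49 sets of 6 B-ALL values (37 named members not at 0 throughout and 12 sums over roles or all members), the lowest or highest library was compared with the others by Dixon's ratio. Chance exceeds its limit in about 1 in 20 sets of independent values, whereas these are 2 libraries of each of 3 mice. Of the 49 sets 3 stood apart, a share near that rate. Ndufa12 had 558 FPKM in mouse 760 library 2, against 715 to 794 FPKM in the other 5 libraries, and library 2 of this mouse was lower than library 1 for 74 of 87 members. Cox8b, a muscle isoform, had 0.28 FPKM in mouse 713 library 2 and was listed at 0 in the other libraries. Ndufa4l2 had 0.14 FPKM in mouse 686 library 1 and was listed at 0 in the other B-ALL libraries. The last 2 values lie under the 1 FPKM used for testing, and a single value above 0 among zeros gives a ratio of 1 whatever its size.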

How the results depend on the processing

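Counts of called members depended on single libraries. Leaving out each library or mouse in turn (14 fits), the members called against wt proB cells ranged from 0 to 12 higher and 0 to 4 lower, and against dHet proB cells from 2 to 23 higher and 0 to 2 lower. Between dHet proB and wt proB cells these fits gave 0 to 1 higher and 0 to 2 lower. Where a fit left 1 wt proB library, that sample was assumed to vary like the other groups. The members' median log2 fold change stayed positive in both B-ALL comparisons, at 0.30 to 0.43 against wt proB cells and 0.14 to 0.48 against dHet proB cells.

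With no filter on low values, 5 members were higher against dHet proB cells. With a mean FPKM of 5 or more, 1 was lower between dHet proB and wt proB cells and 3 differed between mice. Rescaled to a common sum, 2 were higher against wt proB cells with a median of 0.15, 4 were lower against dHet proB cells, and 2 were higher in dHet proB than wt proB cells. Quantile normalization gave medians of 0.13 and 0.094 in the B-ALL comparisons, 4 lower against dHet proB cells and 2 higher in dHet proB than wt proB cells. With the mouse as a random effect, 2 were lower against dHet proB cells and 1 was higher in dHet proB than wt proB cells. A fit of only the 2 groups compared called 13 higher against wt proB cells.

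The replicate number as a block, together with the mouse as a random effect, called 4 higher against dHet proB cells and 1 higher in dHet proB than wt proB cells. Library 3 of the dHet proB cells is the only sample with its number and drops out of that fit. Deviations of same-numbered samples of different groups had correlations of -0.13 to 0.11 (14 pairs). The pairs of B-ALL with wt proB libraries repeat 1 value per mouse, as deviations of 2 libraries mirror each other. Differently numbered samples were not compared, so this check cannot decide whether the numbers pair samples between groups. Between mice, where these correlations were 0.13 to 0.64, the replicate block called 3 members in place of 5.

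No called change of a named member reversed its sign in any alternative. Unknown depth leaves the precision of low values, such as Cox6b2, unknown.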
